A study of Homo sapiens with 7 samples.

Results

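Counts were followed for 8 genes, 7 of the protein arginine methyltransferase (PRMT) family and the ubiquitin ligase gene CNOT4. PRMT1, PRMT2, PRMT3, CARM1, PRMT5, PRMT6, PRMT7 and CNOT4 were matched by symbol to the Ensembl gene identifiers of the count files, which list 62238 genes. All 8 members were among the 24887 genes with enough counts to be tested for expression, and 7 of the 8 could be tested for exon usage. The members were chosen by name and by their place in the study's question.

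The cells were MEG-01, a human leukemia line with megakaryocytic features that was cultured with fetal bovine serum and harvested while growing exponentially. RNA-seq was made from 1 control culture, which carries no knockdown label, and from 2 stable lines in which RBM15 was reduced by a lentiviral shRNA, shRBM15#1 in one line and shRBM15#2 in the other. The labels of all 3 cultures give lentiviral transgenes, and the construct carried by the control is not stated. RIP-seq, the sequencing of RNA recovered with an antibody, comprised 4 libraries, 2 labelled with normal immunoglobulin and 2 with anti-RBM15 antibody. Each knockdown line is 1 culture, so the spread between the lines holds the difference between the shRNAs as well as technical variation, and with 1 control a difference between control cultures cannot be told apart from the knockdown.

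PRMT enzymes transfer methyl groups from S-adenosylmethionine to arginine side chains, often in the arginine-rich stretches of RNA-binding proteins. PRMT1, PRMT2, PRMT3, CARM1 and PRMT6 make asymmetric dimethylarginine, PRMT5 makes symmetric dimethylarginine, and PRMT7 makes monomethylarginine. CNOT4 is a RING-type ubiquitin ligase that associates with the CCR4-NOT deadenylase complex. RBM15 is an RNA-binding protein. The study asked how methylation of RBM15 by PRMT1 and its ubiquitylation by CNOT4 bear on RNA splicing, so the members are enzymes that act on RBM15 protein or relatives of one that does. The comparison here runs the other way and asks what happened to the RNA of these enzymes when RBM15 was reduced.

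The sequences that define the groups and the PRMT1 isoform in question are shown first. The shRNA target sequences of the lines lie in exon bin 002 of RBM15, within coding sequence, at chr1:110882526-110882545 and chr1:110884588-110884607 of GRCh37 on the plus strand. An exon bin is a stretch of exon between neighbouring splice or end positions of the Ensembl models. No base is capitalised in these targets.
shRBM15#1: gcggaatacaagactctgaa
shRBM15#2: ccaatggttatgccattctt

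PRMT1 has a V1 isoform and a V2 isoform, which differ by a short exon near the 5′ end. The V2 exon is exon bin 020, 54 bases at chr19:50183129-50183182 of GRCh37 on the plus strand, coding in the V2 transcript and untranslated in some other transcript models. It is shown because V2 holds it and V1 does not. Bin 020 is not particular to V2, since 7 Ensembl transcript models hold it. The junction covered by the V2 primer was found in 3 transcripts of the newer annotation. The forward primer that the study designed for V2 covers the last 14 bases of this exon and the first 6 bases of the next shared exon, bin 025. Capitals mark the bases of the V2 exon that the primer covers, in both sequences.
PRMT1 V2 exon: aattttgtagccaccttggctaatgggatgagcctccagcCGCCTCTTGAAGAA
V2 forward primer: CGCCTCTTGAAGAAgtgtcc

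The libraries held 41629454 to 53230029 counts on exon bins, and the shRBM15#1 library was the shallowest and had the largest share of reads on lines that name no gene, 32.0% against 23.2% in the control and 23.5% in the shRBM15#2 library. RBM15 itself had 3970 counts in the control, 1957 in the shRBM15#1 line and 2121 in the shRBM15#2 line. Both lines lay well below the control, at 0.526-fold on average (95% interval 0.368 to 0.751), with an adjusted p of 0.0908 in the edgeR quasi-likelihood test with Benjamini-Hochberg adjustment, which misses the limit of 0.01. Of the 9 megakaryocyte markers, 6 were tested and none passed the limit, 3 being above the control in both lines and 3 below. ITGA2B was abundant but lower in the lines (919, 476 and 607 CPM in the order control, shRBM15#1, shRBM15#2), whereas ITGB3 (6.28, 17.9 and 51.8 CPM) and PPBP (2.38, 6.12 and 56.9 CPM) were higher. GATA1 had 71.7, 64.2 and 66.0 CPM, GP9 and PF4 had at most 5 counts in any library, and GP1BB was not matched. All 7 erythroid markers had higher CPM (counts scaled to a library of 1000000) in both lines than in the control. Of all genes tested, 39.7% were above the control in both lines and 39.5% below. The summed level of the erythroid markers was 896.0 CPM in the control, 4240 in the shRBM15#1 line and 4196 in the shRBM15#2 line. The fetal globin genes HBG1 and HBG2 and the heme synthesis gene ALAS2 passed the limit. Of the granulocyte and monocyte markers, 5 were tested, 2 being above the control in both lines and 1 below. The one below, the protease gene CTSG, fell from 95.8 CPM in the control to 3.73 and 8.55 CPM in the lines and passed the limit. CSF1R (2.71, 7.08 and 8.26 CPM) and CD14 (0.263, 0.648 and 3.93 CPM) were higher in both lines and did not pass. The summed level of these markers, most of it CTSG in the control, was 135, 38.3 and 72.3 CPM. The lymphocyte markers summed to 4.89, 5.83 and 4.64 CPM and the epithelial and fibroblast markers to 159, 110.3 and 110.2 CPM, with no gene past the limit. The part of these shifts in the results on the members was not tested, and a change in the mixture of cells and a change of RNA per cell cannot be told apart in bulk RNA.

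None of the 8 members passed the limit for differential expression. Of all 24887 genes tested, 86 did (0.346%), with 17 higher (0.0683%) and 69 lower (0.277%) after knockdown. The adjusted p of the members ranged from 0.320 to 0.979, and all 8 also missed an adjusted p of 0.05, which 1.74% of all genes passed. None had an unadjusted p under 0.05, a limit that 18.8% of all genes passed. DESeq2 gave adjusted p-values of 0.573 to 0.994 for them and called 0 of the 8, beside 484 of all 24887 genes. Their log2 fold changes ran from -0.46 to 0.50 with a median of -0.01, beside a median of 0.02 over all genes tested.

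PRMT1, the main asymmetric arginine methyltransferase of mammalian cells and the enzyme that methylates RBM15, is at chr19:50179043-50191920 (ENSG00000126457). It had 41853 counts in the control, 32234 in the shRBM15#1 line and 40334 in the shRBM15#2 line, or 846, 720 and 773 CPM. Both lines were below the control, and the gap between the lines was of the same order as their gap to the control. The log2 fold change was -0.18 (SE 0.22, 95% interval -0.68 to 0.32, 1 control and 2 lines), with an adjusted p of 0.703 by the edgeR quasi-likelihood test. The interval runs from 0.625-fold to 1.25-fold, so a loss of PRMT1 RNA as deep as the fitted loss of RBM15 RNA lies outside it.

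CNOT4, the ligase of the pathway, is at chr7:135046547-135194875 (ENSG00000080802). It had 773 counts in the control, 717 in the shRBM15#1 line and 819 in the shRBM15#2 line, which correspond to 15.6, 16.0 and 15.7 CPM. After scaling, the 3 libraries were within a narrow band, with both lines slightly above the control. The log2 fold change was 0.02 (SE 0.28, 95% interval -0.62 to 0.66), and the interval still allows a change from 0.652-fold to 1.58-fold.

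CARM1, also called PRMT4, is a transcriptional coactivator that methylates histone H3 and splicing factors. It is at chr19:10982189-11033453 (ENSG00000142453) and had 5474 counts in the control, 3905 in the shRBM15#1 line and 3852 in the shRBM15#2 line, or 111, 87.2 and 73.8 CPM. Both lines were below the control, the shRBM15#2 line more so. Its log2 fold change of -0.46 (SE 0.23, 95% interval -0.98 to 0.06) was the lowest of the members, with an adjusted p of 0.320 by the edgeR quasi-likelihood test.

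PRMT6, a nuclear enzyme that methylates histone H3, is at chr1:107599267-107601916 (ENSG00000198890) and lay at the other end. It had 1357 counts in the control, 1574 in the shRBM15#1 line and 2219 in the shRBM15#2 line, or 27.4, 35.2 and 42.5 CPM. Both lines were above the control and differed from each other by about as much as the lower of them did from the control. The log2 fold change was 0.50 (SE 0.26, 95% interval -0.10 to 1.10), with an adjusted p of 0.339 by the edgeR quasi-likelihood test.

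PRMT7, the monomethylating enzyme, is at chr16:68344877-68392466 (ENSG00000132600) and had 59.1 CPM in the control, 70.9 in the shRBM15#1 line and 76.2 in the shRBM15#2 line. Both lines were above the control, with a log2 fold change of 0.32 (SE 0.23, 95% interval -0.21 to 0.84). PRMT2, at chr21:48055079-48085036 (ENSG00000160310), had 102, 113 and 117 CPM in the same order, again with both lines above the control. Its log2 fold change was 0.17 (SE 0.22, 95% interval -0.33 to 0.68).

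PRMT3, a cytosolic enzyme that methylates a ribosomal protein, is at chr11:20409076-20530840 (ENSG00000185238) and had 73.9 CPM in the control, 56.3 in the shRBM15#1 line and 66.5 in the shRBM15#2 line. Both lines were below the control, with a log2 fold change of -0.27 (SE 0.23, 95% interval -0.80 to 0.27). PRMT5, the main symmetric enzyme, is at chr14:23389720-23398794 (ENSG00000100462) and had 92.9, 85.5 and 94.0 CPM in the same order. Its control value lay between the lines, and its log2 fold change was -0.05 (SE 0.23, 95% interval -0.56 to 0.46). Of the 75 PRMT5 bins, 22 overlap another gene, and 21 of these are listed with 0 counts in every library. Without the overlapping bins the log2 fold change of PRMT5 was also -0.048.

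Counted over the members, 4 had more CPM in both lines than in the control, 3 had fewer, and PRMT5 was mixed. Over all genes tested, both lines were above the control in 39.7% and below it in 39.5%, and the members' 4 and 3 of 8 are read against those shares.

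**Figure D1:**
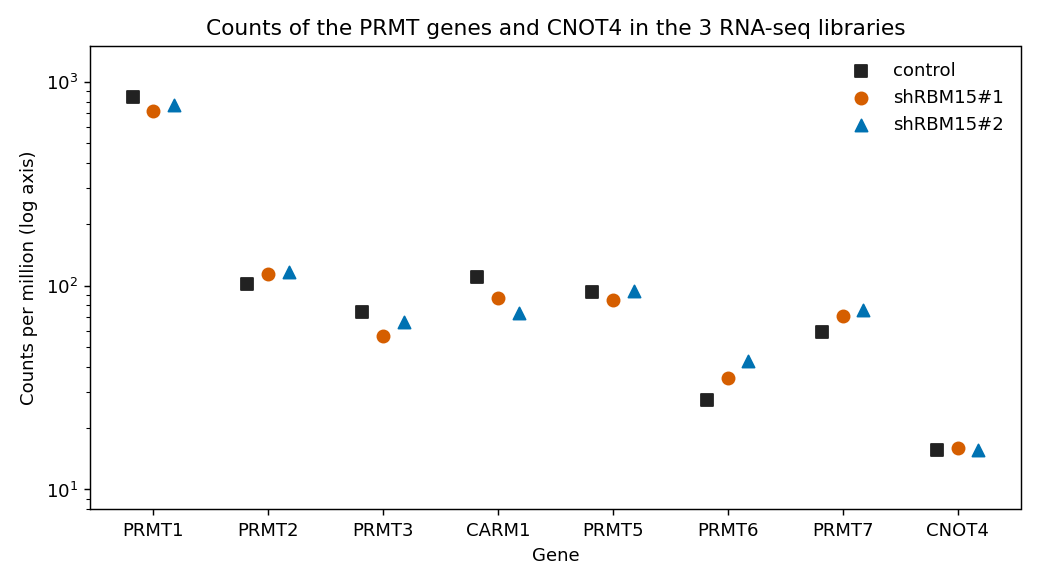
CPM on a log axis for each of the 8 genes in the control (square), the shRBM15#1 line (circle) and the shRBM15#2 line (triangle), 1 library each. PRMT1 sits far above the rest at 720 to 846 CPM, CNOT4 is lowest at 15.6 to 16.0 CPM, and the CPM values of PRMT2, CARM1 and PRMT5 lie close together.

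**Figure D2:**
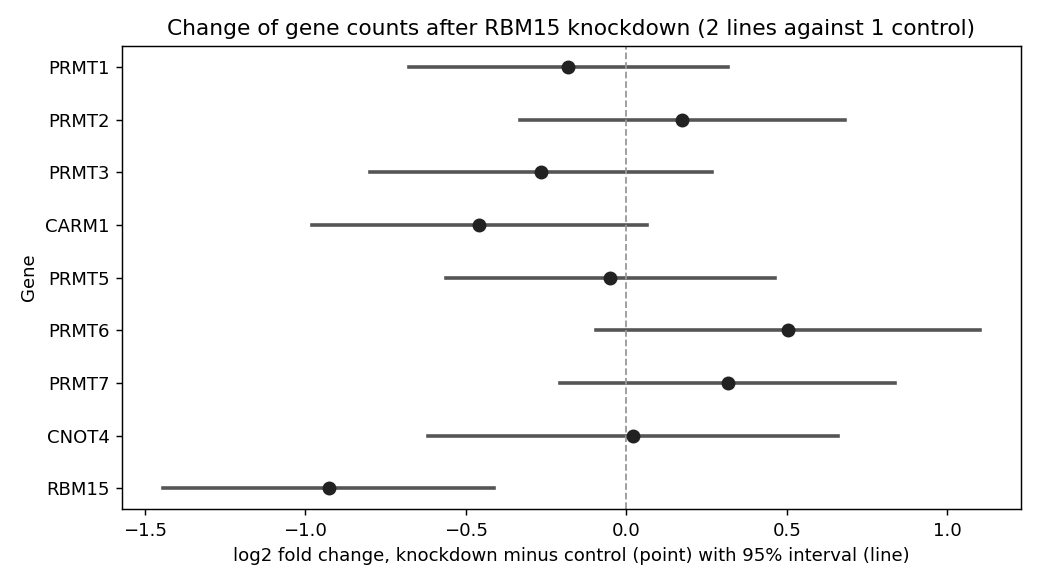
log2 fold change of the knockdown lines against the control for the 8 genes and for RBM15, the gene targeted by the shRNAs, with the 95% interval as a line. The intervals of all 8 members include 0, while that of RBM15 runs from -1.44 to -0.41.

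Levels of different genes were set side by side as RPKM, the CPM value divided by the length of the gene's exon bins in kilobases. PRMT1 led with 191 RPKM in the control, 163 in the shRBM15#1 line and 175 in the shRBM15#2 line. PRMT5 followed with 26.8, 24.7 and 27.1 RPKM, and CARM1 with 26.6, 20.96 and 17.7 RPKM, so these neighbours overlapped. PRMT3, PRMT2 and PRMT6 came next, between 10.3 and 16.0 RPKM over the 3 libraries, and the neighbours in that order overlapped as well. PRMT7 was lower, at 6.25 to 8.05 RPKM, and CNOT4 lowest, at 2.23 to 2.29 RPKM. PRMT1 bin 021 is only 4 bases long and holds 150 counts in the control, so a fragment appears to be counted on every bin it touches, which was not tested. Genes cut into many short bins would then score too high on this scale. Over bins of at least 100 bases only, a setting chosen after this was seen, PRMT1 still led with 99.0 RPKM in the control and CNOT4 was still lowest with 1.74. CARM1, at 19.5 RPKM, then stood above PRMT5, at 13.1. On both scales the length of PRMT5 includes bins that overlap another gene and have no counts in any library, which lowers its value. Over bins with a read in the control, PRMT5 had 33.7 to 37.1 RPKM over the 3 libraries and CARM1 18.1 to 27.2, without overlap. The order of PRMT5 and CARM1 thus depended on the bins included.

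Exon usage was compared as the share of a gene's counts that falls on each bin, with a relative log2 fold change that sets the bin against its gene. The limits used by the study (unadjusted p below 0.05 with a fold of more than 1.2) were passed by 13 of the 260 tested bins of the members, which is 5%, beside 1.45% of the 234192 bins tested in all. Of these 13 bins, 6 were used more after knockdown, a direction taken by 0.662% of all bins, and 7 less, beside 0.787% of all bins. No bin of a member passed an adjusted p of 0.05, which 0.0205% of all bins did, and the lowest adjusted p of any of them was 1. The 13 bins came from 4 genes, 6 from PRMT1, 5 from PRMT2 and 1 each from PRMT3 and CNOT4. Neighbouring bins may share fragments, so they are not taken as separate observations. Of the 4568 genes with 20 to 60 tested bins, 25.9% had at least 1 such bin and 1.34% had at least 5. The cut at 5 is the count seen in PRMT2, so the share of 1.34% is no test of these genes. When every bin with at least 1 read was tested, PRMT1 had 6 such bins and PRMT2 had 4. No bin of CARM1, PRMT5 or PRMT7 passed, and PRMT6, whose counts fall almost wholly on a single bin, could not be tested.

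The V2 exon of PRMT1, whose sequence is given above, had 321 counts in the control, 202 in the shRBM15#1 line and 233 in the shRBM15#2 line. As a share of all PRMT1 counts these are 0.767%, 0.627% and 0.578%, so the exon took up less of the gene in both lines than in the control. The relative log2 fold change was -0.35 (SE 0.16) with an unadjusted p of 0.197 in edgeR's exon usage test, and the exon did not pass the limits. Set against the next shared exon, bin 025, which had 2217, 1751 and 2195 counts, the V2 exon had 14.5% of its counts in the control, 11.5% in the shRBM15#1 line and 10.6% in the shRBM15#2 line. Both lines were again lower, and they were nearer to each other than to the control. Per base the same ratios were 27.3%, 21.8% and 20.1%. This ratio was added after the data were seen and has no test of its own. Since bin 020 also lies in transcript models other than V2, none of these shares is a share of V2 alone. Bin 021, the 4 adjoining bases, had 6.77%, 4.74% and 3.92% of the counts of bin 025 in the same order. Fragments may be counted on both bins, so how much of the lower share of bin 020 belongs to V2 was not tested.

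The bins around the V2 exon lay on the same side. Bin 021, the 4 bases that extend the V2 exon in a longer form, had 150 counts in the control, 83 in the shRBM15#1 line and 86 in the shRBM15#2 line. Its relative log2 fold change was -0.61 (SE 0.19, unadjusted p = 0.0495 in edgeR's exon usage test), just past the limits. Bin 023, a cassette exon at chr19:50183397-50183495, had 127, 68 and 69 counts in the same order and a relative log2 fold change of -0.67 (SE 0.19, unadjusted p = 0.039 in edgeR's exon usage test). As a share of the gene, bin 021 took up 0.358%, 0.257% and 0.213% and bin 023 took up 0.303%, 0.211% and 0.171%. The control stood above both lines in each bin, with the shRBM15#2 line lowest. Bins 019, 022 and 024 gave -0.39, -0.19 and -0.51, and none of these passed. Bin 021 no longer passed when every bin with at least 1 read was tested, with an unadjusted p of 0.0536 in edgeR's exon usage test.

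At the 5′ end of PRMT1, bins 003 to 006, which abut each other at chr19:50179483-50179696 and are untranslated first-exon sequence of upstream transcripts, were used more after knockdown. Bin 005, the bin of PRMT1 with the smallest p, had 7 counts in the control, 21 in the shRBM15#1 line and 21 in the shRBM15#2 line, a relative log2 fold change of 1.78 (SE 0.39, unadjusted p = 0.00664 in edgeR's exon usage test). Bins 003, 004 and 006 had 5 to 7 counts in the control and 14 to 18 in the lines, with relative log2 fold changes of 1.77, 1.72 and 1.47. The lines were above the control in each of these bins, at counts so low that together they hold well under 1% of the gene. With the control's counts in every library they would have missed the summed minimum of 30, so their higher use is no independent support. The main body of the gene did not share these shifts. Bins 025, 026, 031, 036 and 038, where the other PRMT1 primers of the study lie, had relative log2 fold changes between -0.05 and 0.04.

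**Figure D3:**
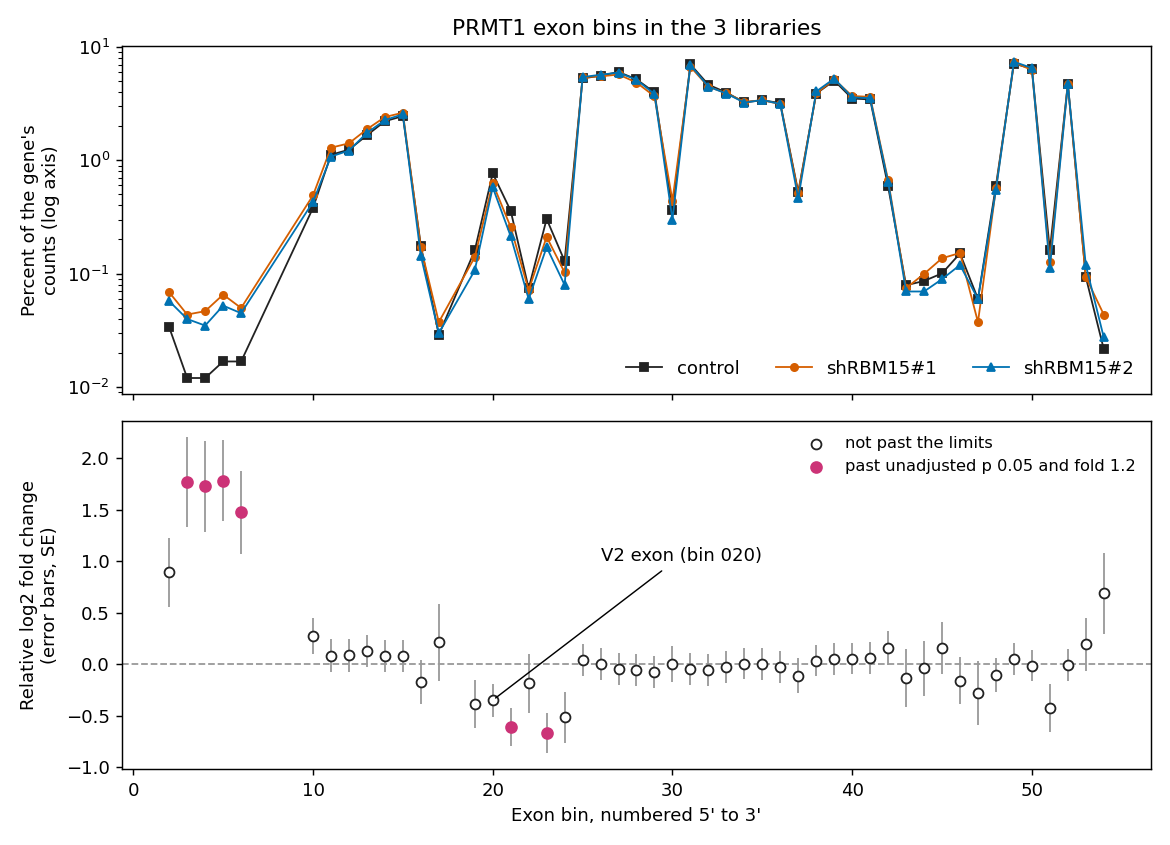
PRMT1 exon bins in order from the 5′ end. The upper panel gives the percent of the gene's counts on each tested bin in each library on a log axis, and the lower panel the relative log2 fold change with its SE, filled where the bin passed an unadjusted p of 0.05 and a fold of 1.2. Bins 003 to 006 lie between 1.47 and 1.78, and bins 019 to 024, which hold the V2 exon, lie between -0.67 and -0.19.

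PRMT2, an arginine methyltransferase with an SH3 domain that acts as a nuclear receptor coactivator, had the largest share of its tested bins past the limits, 5 of 29. Bin 027, its bin with the smallest p, is a coding exon of 130 bases at chr21:48080745-48080874 of GRCh37 on the plus strand. It had 135 counts in the control, 84 in the shRBM15#1 line and 94 in the shRBM15#2 line, or 2.67%, 1.65% and 1.54% of the gene. The lines were close together and below the control, with a relative log2 fold change of -0.74 (SE 0.20, unadjusted p = 0.0175 in edgeR's exon usage test). Its sequence is given as the exon of PRMT2 whose use differed with the smallest p, with no base capitalised.
PRMT2 exon bin 027: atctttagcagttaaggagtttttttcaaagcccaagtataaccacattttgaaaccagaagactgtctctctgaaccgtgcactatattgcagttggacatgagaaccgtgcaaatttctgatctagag

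Bins 022, 030 and 031 also passed on the low side, with relative log2 fold changes of -0.82, -0.81 and -0.66. Bin 022 had 69 counts in the control, 42 in the shRBM15#1 line and 44 in the shRBM15#2 line. Bins 030 and 031 had 79 and 101 counts in the control, 41 and 58 in the shRBM15#1 line, and 59 and 84 in the shRBM15#2 line. In each bin the control was highest as a share of the gene.

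Bin 020 passed in the other direction. It had 58 counts in the control, 102 in the shRBM15#1 line and 114 in the shRBM15#2 line, which is 1.15%, 2.01% and 1.87% of the gene, with a relative log2 fold change of 0.75 (SE 0.23, unadjusted p = 0.0311 in edgeR's exon usage test). In the annotation 3 of the 15 PRMT2 transcript models end in bins 020 and 021, and the other 12 end in or after bin 022. All 11 tested bins from 022 on had a negative relative log2 fold change, with a median of -0.45, while 16 of the 18 tested bins up to 021 had a positive one. Summed, bins 022 to 034 held 34.7% of PRMT2 counts in the control, 25.3% in the shRBM15#1 line and 25.9% in the shRBM15#2 line. This sum includes bins 024 (4.71%, 4.00% and 3.27%) and 026 (9.02%, 6.28% and 6.93%), noncoding stretches that 1 transcript each holds. Bin 032, which 8 transcripts hold, moved less, at 5.11%, 4.43% and 4.37%. The 3′ bins thus made up less of the gene in both lines, which lay close to each other. This boundary was chosen after the values were seen and was not tested, and the relative values of a gene are tied, since a lower share in some bins raises it in others.

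**Figure D4:**
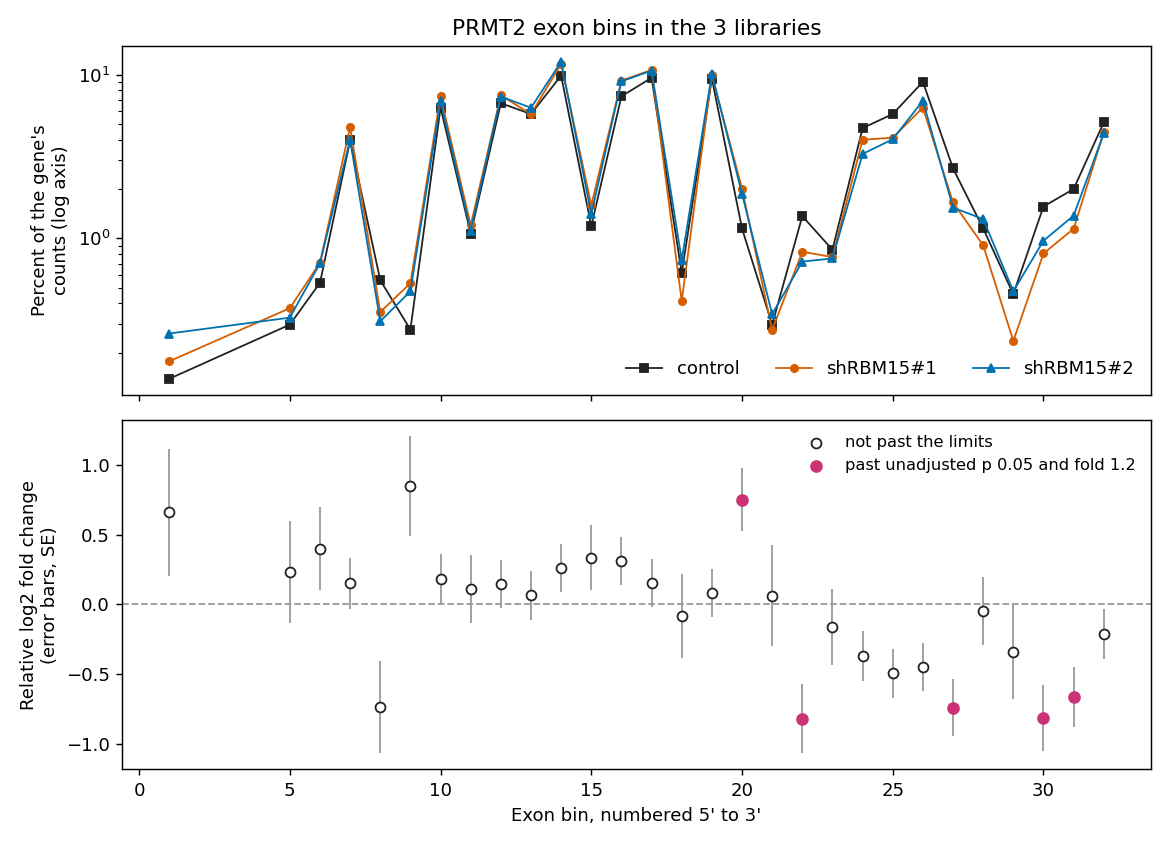
PRMT2 exon bins in order from the 5′ end, drawn as for PRMT1. The share on bins 022 to 032 is mostly lower in the knockdown lines than in the control, and all 11 tested bins there have a relative log2 fold change below 0, down to -0.82.

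In CNOT4, 1 of 24 tested bins passed. Bin 010, an untranslated stretch at chr7:135070923-135072333 that 2 transcripts hold, had 60 counts in the control, 24 in the shRBM15#1 line and 29 in the shRBM15#2 line. That is 7.76%, 3.35% and 3.54% of the gene, with the lines together and the control above them. The relative log2 fold change was -1.16 (SE 0.32, unadjusted p = 0.00594 in edgeR's exon usage test), the smallest p of any bin of the members. The bins that hold the study's CNOT4 primers, 016, 018 and 019, and its CNOT4 shRNA targets, 014, 015 and 026, had 16 to 57 counts in each library and relative log2 fold changes from -0.42 to 0.44, none past the limits. At these counts the SE was 0.29 to 0.42, so a moderate change in a CNOT4 exon was not detectable at this depth.

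The single PRMT3 bin past the limits was bin 027, 29 bases of untranslated sequence near the 3′ end, with 9 counts in the control, 14 in the shRBM15#1 line and 27 in the shRBM15#2 line. The lines were above the control but far apart, and the relative log2 fold change was 1.46 (SE 0.48, unadjusted p = 0.0199 in edgeR's exon usage test). This bin too reached the summed minimum of 30 only through the lines. In the other genes the bins with the smallest p did not pass. PRMT7 bin 046 had 49, 79 and 119 counts and a relative log2 fold change of 0.71 (SE 0.25, unadjusted p = 0.0518 in edgeR's exon usage test). PRMT5 bin 060 had 23, 7 and 18 counts and an unadjusted p of 0.143 in edgeR's exon usage test, and CARM1 bin 034 had 16, 19 and 19 counts and an unadjusted p of 0.311 in the same test.

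None of the 1515 listed RIP-seq sites lay in a member. The count was 0 by gene symbol, 0 by Entrez identifier and 0 by overlap with the span of the gene, beside 3.66% of the symbols tested for expression with a listed site. Among the 8474 genes with at least 2000 counts over the 3 libraries, the share was 9.66%. The nearest listed site on the same chromosome was 81.5 kb from PRMT1 and 2382 kb from CNOT4, and for the other members the distance lay between 139 and 1980 kb. The list holds only sites that passed the authors' filter, so it does not give the reads of these genes. The reads over all listed sites were 28387 and 610915 in the libraries labelled normal immunoglobulin and 28845 and 807871 in those labelled anti-RBM15 antibody. They differed far more within each label than between the labels. Whether the labels or the columns are crossed was not tested. The libraries were not compared here, and reads are given by label only.

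The genes around the members were taken from 7 lists of partners, cofactor enzymes, readers and substrates, 67 names in all, of which 64 were tested. None passed an adjusted p of 0.01 in the edgeR quasi-likelihood test, beside 0.346% of all genes, and 1 passed 0.05, beside 1.74% of all genes. DESeq2 gave 1 call, beside 484 of all 24887 genes tested. The test without the filter on low counts gave 2, beside 801 of all 53542 genes tested in that setting. In the main test 13 of the 64 genes had an unadjusted p under 0.05, beside 18.8% of all genes. The median log2 fold change over the 64 was -0.03, with 22 genes above the control in both lines and 28 below, beside 39.7% and 39.5% of all genes.

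Among PRMT partners, BTG2, an antiproliferative protein that binds PRMT1, had 305 counts in the control, 876 in the shRBM15#1 line and 1077 in the shRBM15#2 line. The lines were close to each other and well above the control, with a log2 fold change of 1.71 (SE 0.31) and an adjusted p of 0.0334 by the edgeR quasi-likelihood test. It was the gene that passed 0.05, and it passed 0.01 with DESeq2 (adjusted p = 0.000255) and without the filter (adjusted p = 0.00656). COPRS, an adaptor that brings PRMT5 to histones, had 9.46, 21.4 and 20.1 CPM and a log2 fold change of 1.13 (SE 0.29), with an adjusted p of 0.103 by the edgeR quasi-likelihood test. WDR77, the obligate partner of PRMT5 and named here after its values were seen, had 44.5, 81.4 and 90.0 CPM and a log2 fold change of 0.95 (SE 0.24), with an adjusted p of 0.0986 in the same test. In both genes the lines were near each other and above the control. The other partners, CLNS1A, RIOK1, BTG1, TOB1 and TOB2, had log2 fold changes between -0.17 and 0.15.

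The list for the S-adenosylmethionine cycle, which supplies the methyl donor, held 10 tested genes, relatives of cycle enzymes among them. Their log2 fold changes had a median of -0.25. Of the 10, 8 were below the control in both lines, with none above, beside 39.5% and 39.7% of all genes. AHCYL1, a relative of the S-adenosylhomocysteine hydrolase AHCY, had 445 CPM in the control, 206 in the shRBM15#1 line and 232 in the shRBM15#2 line. Both lines were far below the control, with a log2 fold change of -1.02 (SE 0.22) and an adjusted p of 0.0596 by the edgeR quasi-likelihood test. Without the filter on low counts the adjusted p in that test was 0.0085, but this setting moved the median of all genes from 0.02 to 0.44. MAT2A, which makes S-adenosylmethionine, had 415, 289 and 302 CPM and a log2 fold change of -0.49 (SE 0.22). Its adjusted p was 0.266 in the edgeR quasi-likelihood test with the filter. AHCY itself had 200, 226 and 173 CPM in the same order and a log2 fold change of -0.003 (SE 0.25).

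Of the CCR4-NOT subunits, 10 were tested. Their median was -0.14 on the log2 scale, with 6 below the control in both lines and 1 above, beside 39.5% and 39.7% of all genes. CNOT3 had 23.4, 16.0 and 13.5 CPM (log2 fold change -0.67, SE 0.28), and the deadenylase CNOT6L had 46.1, 29.3 and 33.4 CPM (log2 fold change -0.56, SE 0.25). In both the lines lay below the control, and neither passed. The UBE2D enzymes, ubiquitin-conjugating enzymes that work with CNOT4, had a median of 0.16, led by UBE2D4 at 0.41 (SE 0.43) and UBE2D1 at 0.34 (SE 0.36), each with few counts.

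Readers and erasers of methylarginine spread widely around a median of 0.19. PADI4, a deiminase that converts arginine to citrulline, had 15, 55 and 57 counts (log2 fold change 1.93, SE 0.63, adjusted p = 0.171 by the edgeR quasi-likelihood test). DDAH2, of the family that breaks down free methylarginine, had 176, 64.3 and 128 CPM (log2 fold change -0.87, SE 0.35), with the shRBM15#1 line far below the shRBM15#2 line. SMN1 and SMN2 are near-identical copies, and how far their reads can be told apart was not tested.

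The RNA-binding substrates of PRMT enzymes had a median of -0.01 over 19 tested genes. Of these, 9 were above the control in both lines and 8 below, beside 39.7% and 39.5% of all genes. FBL, the nucleolar protein fibrillarin, had 361, 171 and 217 CPM (log2 fold change -0.89, SE 0.24, adjusted p = 0.107 by the edgeR quasi-likelihood test). PABPC1, the cytoplasmic poly(A)-binding protein, had 1329, 1010 and 725 CPM (log2 fold change -0.62, SE 0.25). Both lines were below the control in each. Of the other PRMT genes, PRMT9 had a log2 fold change of 0.00 (SE 0.29) and PRMT8 had 7, 37 and 19 counts (2.05, SE 0.92), too few to place.

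Listed RIP-seq sites were found in 9 of the 64 tested list genes, of which 7 were among the 19 substrates, FBL, NCL and HNRNPK among them, 1 was the PRMT5 partner CLNS1A and 1 was AHCY. Over all symbols tested the share with a site was 3.66%, and it was 9.66% among genes with at least 2000 counts. The CLNS1A site, at chr11:77327244-77327719 in the 3′ untranslated region, had 63 and 781 reads in the libraries labelled normal immunoglobulin and 65 and 1216 in those labelled anti-RBM15 antibody.

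By the pattern over the 3 libraries, the listed genes nearest to PRMT1 were FMR1, MTRR and CLNS1A, at distances of 0.041, 0.061 and 0.067 between the log2 fold changes of the lines. Those nearest to CNOT4 were CNOT2, UBE2D3 and HNRNPU, at 0.069, 0.089 and 0.097. These are descriptions over 3 libraries that share the control.

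**Figure D5:**
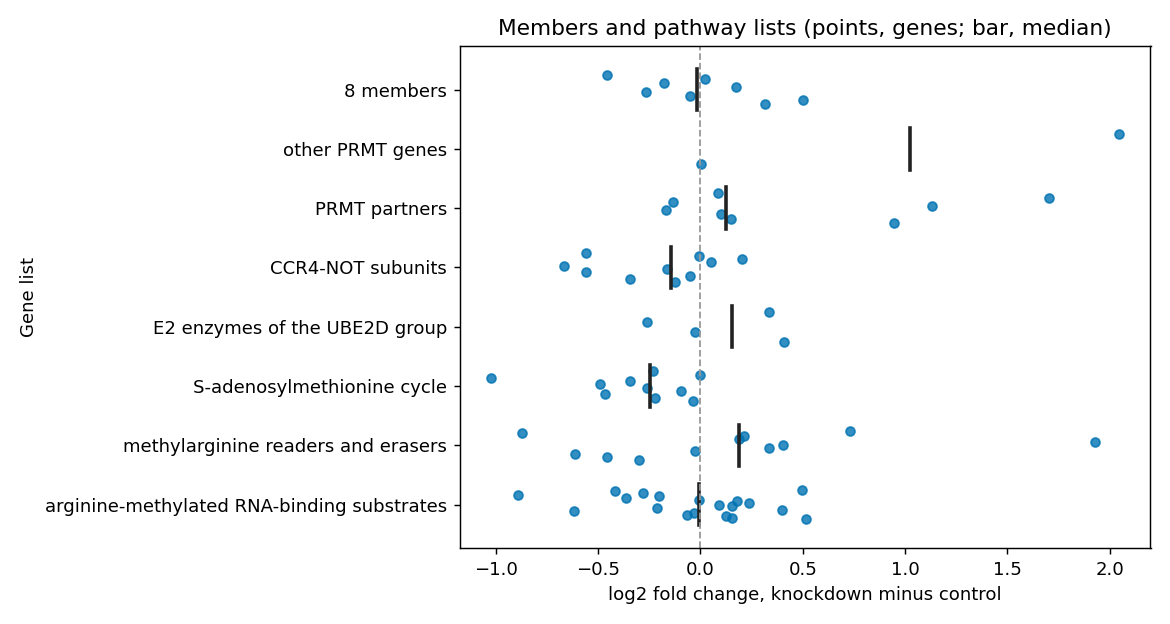
log2 fold change of each tested gene, knockdown minus control, for the 8 members and the 7 lists, with the median as a bar. The members lie within -0.46 and 0.50, a narrower range than the PRMT partners, the S-adenosylmethionine cycle or the readers and erasers, where single genes reach from -1.02 to 1.93.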

How the data were processed

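RNA-seq of 3 MEG-01 cultures and RIP-seq of 4 libraries were used. The RNA-seq reads, paired and without strand information, were mapped with STAR to GRCh37. The authors deposited the raw counts on exon bins, cut from Ensembl GRCh37.70 models, and the submitters' processing notes name HTSeq 0.6.0 without a role. For the RIP-seq the authors deposited raw read counts of 4 libraries over 1515 sites that passed their filter, with RefSeq annotation. The deposited tables also hold the authors' fold changes and p-values per bin and per site, which were not used, and 809 wrapped lines of the bin table were left out.

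Lines that name no gene, 23.2% to 32.0% of reads, were kept out of library sizes. Symbols were taken by identifier from GENCODE 44 lifted to GRCh37, for 54481 of 62238 genes. Bin counts were summed per gene and tested with edgeR 4.0.16 in R 4.3.3 (quasi-likelihood test, TMM, summed count of at least 30, Benjamini-Hochberg over 24887 genes, adjusted p under 0.01). The test compared 1 control with 2 knockdown lines, with 1 residual degree of freedom from the spread between these lines. The quasi-likelihood fit adds information on spread from all genes, which gave 8.78 degrees of freedom in total for each member. No spread between control cultures enters the p-values. Intervals are at 95%. Exon usage was tested with diffSpliceDGE under the same count minimum per bin, in place of DEXSeq, which was not installed. Alternatives were size factors, other count minimums, DESeq2 1.42.0, bins that overlap no other gene and leaving out each line. The scripts were tested on simulated data with known changes.

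The members and gene lists were chosen with earlier results of these data known. Named were all members, RBM15, list genes past the limit and the 2 with the largest absolute log2 fold change in each list, the 3 list genes nearest to PRMT1 and to CNOT4, and the member bins with the smallest p, past the limits or holding the study's primers or shRNA targets. PRMT10, RQCD1 and GP1BB had no match by symbol, and TAF15 had 0 counts under the identifier matched. Sequences of shRNA targets and the primer came from the study's supplementary tables, and exon sequences from the GRCh37 genome. The second PRMT1 shRNA of the study matched no PRMT1 transcript.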

Additional observations from a re-analysis of the deposited data

How the results depend on the processing

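None of the 8 members was called under any alternative. The number of genes called was 86, and it was 191 with size factors, 801 without the filter on low counts, 484 with DESeq2 and 432 at an adjusted p under 0.05. The log2 fold change of CNOT4, 0.02 and not called, was -0.11 without the filter, a setting that moved the median of all genes from 0.02 to 0.44. The cause was not tested. Leaving out 1 knockdown line gave log2 fold changes, without a test, of -0.17 to -0.080 for PRMT1, 0.21 to 0.25 for PRMT2, -0.33 to -0.10 for PRMT3, -0.53 to -0.28 for CARM1, -0.061 to 0.067 for PRMT5, 0.42 to 0.68 for PRMT6, 0.32 to 0.42 for PRMT7, 0.057 to 0.095 for CNOT4 and -0.93 to -0.82 for RBM15. Each of these pairs was scaled anew, so the average of both can differ from the fit of all 3. Pathway-list calls, 0 at first, were 2 without the filter (BTG2 and AHCYL1), 1 with DESeq2 (BTG2) and 1 at an adjusted p under 0.05.

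Exon bins called numbered 3392 in all. They were 8733 with every bin of at least 1 read, 736 with bins of at least 300 counts, 5180 in the DEXSeq-type model and 48 at an adjusted p under 0.05. In the members the 13 calls became 2 of 108 tested bins at the minimum of 300, which is 1.85% beside 0.88% of all bins, and 0 at an adjusted p under 0.05. They were 16 of 319 with every bin of at least 1 read, which is 5.02% beside 1.77% of all bins. In the DEXSeq-type model they were 18 of 260, which is 6.92% beside 2.21% of all bins.

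With the library size that includes lines naming no gene, the control RPKM was 136 for PRMT1, 9.08 for PRMT2, 9.65 for PRMT3, 18.98 for CARM1, 19.1 for PRMT5, 7.39 for PRMT6, 4.46 for PRMT7 and 1.59 for CNOT4. Over bins of at least 100 bases it was 99.0 for PRMT1, 9.99 for PRMT2, 8.96 for PRMT3, 19.5 for CARM1, 13.1 for PRMT5, 2.44 for PRMT7 and 1.74 for CNOT4. With bins that have a read in the control it was 36.7 for PRMT5. No paired analysis was possible because the groups share fewer than 2 replicate numbers, with 1 control library.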
